A study of Mus musculus with 6 samples.

Results

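The Bcl2 family sets the threshold at which a cell enters mitochondrial apoptosis, and 10 of its genes were followed here in myeloid cells of the mouse spleen. They were chosen by name as 6 pro-survival members (Mcl1, Bcl2, Bcl2l1, Bcl2a1a, Bcl2a1b and Bcl2a1d) and 4 pro-death members (Bax, Bak1, Bcl2l11 and Bid). All 10 were found by Ensembl identifier among the 43432 genes of the deposited table.

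The libraries were bulk RNA-seq of CD11b+ cells sorted from spleen at day 8 after cell transfer, with 3 mice in each of 2 groups. WT iGB6 recipients had received wild-type B cells, grown in the induced germinal centre B cell (iGB) culture and transduced with a retroviral vector carrying Il6 and a green fluorescent protein. IgHMOG iGBGFP recipients had received IgHMOG B cells transduced with the empty vector. In both groups the B cells were loaded with MOG protein and given along with 2D2 CD4+ T cells that had not been manipulated, and every recipient was a Rag1 knockout mouse on the C57BL/6J strain, whose own mature B and T cells are missing. B cell genotype and Il6 vector changed together, so effects of one and the other cannot be told apart. Replicate 1 of each group was a female mouse and replicates 2 and 3 were males.

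As background, BAX and BAK, the effector proteins, open pores in the outer mitochondrial membrane once activated, and the released cytochrome c starts the caspase cascade. MCL1, BCL2, BCL-XL (encoded by Bcl2l1) and A1 (encoded by the Bcl2a1 genes) hold the effectors in check, and BH3-only proteins such as BIM (encoded by Bcl2l11) and BID release that restraint. Neutrophils are known to depend on MCL1, a short-lived protein, and A1 is an NF-kappa B target that is best known from blood cells.

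Near-identical gene copies limit what can be said of A1. The mouse carries several Bcl2a1 copies on chromosome 9, and the coding sequences of Bcl2a1a, Bcl2a1b and Bcl2a1d, 516 bases each in GENCODE M21, differed at 12 positions. Bcl2a1a and Bcl2a1b were 97.9% identical, Bcl2a1a and Bcl2a1d 98.6%, and Bcl2a1b and Bcl2a1d 98.8%. The first 90 coding bases are shown because they hold 6 of the 12 differing positions, which are in capitals. They lie in the first coding exon, at chr9:88957051-88957140 on the plus strand for Bcl2a1a, chr9:89199360-89199449 on the plus strand for Bcl2a1b and chr9:88731630-88731719 on the minus strand for Bcl2a1d (GRCm38).
Bcl2a1a: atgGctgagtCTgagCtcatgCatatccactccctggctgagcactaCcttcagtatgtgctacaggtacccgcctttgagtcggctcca
Bcl2a1b: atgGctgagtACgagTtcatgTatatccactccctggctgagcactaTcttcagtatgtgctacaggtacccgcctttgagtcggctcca
Bcl2a1d: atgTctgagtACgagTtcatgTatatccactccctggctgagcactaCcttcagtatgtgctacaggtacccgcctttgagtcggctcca
Of all 50-base windows of the coding sequence, 73.9% in Bcl2a1a, 52.7% in Bcl2a1b and 83.5% in Bcl2a1d also occurred in another of these copies. With 100-base windows the shares were 54.0% in Bcl2a1a, 30.5% in Bcl2a1b and 56.1% in Bcl2a1d. The sources used here give neither the read length nor how reads that match more than 1 copy were treated, so the split of reads among the copies is uncertain and their sum is given beside them.

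The promoters of Mcl1 and the 3 Bcl2a1 copies, among which are the 3 members that fell in WT iGB6, are shown with motif matches in capitals. They were taken from RefSeq on GRCm38.p6 and cut to the bases before both the RefSeq and the GENCODE gene start: chr3:95658471-95658720 on the plus strand for Mcl1, chr9:88956670-88956899 on the plus strand for Bcl2a1a, chr9:89199023-89199208 on the plus strand for Bcl2a1b and chr9:88731915-88732100 on the minus strand for Bcl2a1d.
Mcl1: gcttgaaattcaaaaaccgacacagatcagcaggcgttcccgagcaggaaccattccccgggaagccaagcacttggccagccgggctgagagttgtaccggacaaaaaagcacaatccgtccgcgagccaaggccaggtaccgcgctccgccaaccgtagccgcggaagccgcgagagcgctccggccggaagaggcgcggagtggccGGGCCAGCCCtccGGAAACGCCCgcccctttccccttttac
Bcl2a1a: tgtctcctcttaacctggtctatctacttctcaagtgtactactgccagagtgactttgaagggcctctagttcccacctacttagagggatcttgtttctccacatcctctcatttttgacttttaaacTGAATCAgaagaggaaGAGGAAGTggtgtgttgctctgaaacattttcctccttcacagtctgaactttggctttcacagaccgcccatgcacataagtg
Bcl2a1b: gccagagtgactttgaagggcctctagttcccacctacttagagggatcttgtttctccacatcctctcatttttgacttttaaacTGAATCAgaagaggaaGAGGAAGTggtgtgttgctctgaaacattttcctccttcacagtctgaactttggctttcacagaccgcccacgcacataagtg
Bcl2a1d: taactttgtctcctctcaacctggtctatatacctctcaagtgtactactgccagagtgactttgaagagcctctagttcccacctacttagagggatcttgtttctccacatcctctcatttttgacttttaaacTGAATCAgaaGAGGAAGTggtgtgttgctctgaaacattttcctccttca
Both strands of the 250 bases before each RefSeq start, from which positions are counted, were searched for 6 motifs. In the Mcl1 promoter the NF-kappa B motif (GGG and CC with any 5 bases between) was found 41 to 32 bases before the start on both strands and 28 to 19 bases before it on the minus strand, and 45.8% of 32851 promoters hold this motif. Bcl2, Bcl2l1, Bcl2l11, Bax, Bak1 and Bid, none of which passed the test for a group difference, held it too, and the Bcl2a1 copies did not. Each Bcl2a1 copy matched the AP-1 pattern TGANTCA, in which N is any base, as TGAATCA. This loose pattern reads the same on both strands, and 6.75% of promoters hold it. Each copy also had the PU.1 motif GAGGAAGT, which 2.44% hold and which Bak1 also had. The promoters of the copies are nearly the same sequence around both motifs, so their matches are not 3 separate ones. AP-1 lay 120 to 114 bases before the start of Bcl2a1a, 164 to 158 before that of Bcl2a1b and 114 to 108 before that of Bcl2a1d. PU.1 lay 104 to 97 bases before the start of Bcl2a1a, 148 to 141 before that of Bcl2a1b and 104 to 97 before that of Bcl2a1d. None of the 10 members matched the STAT motif TTCNNNGAA (7.02% of promoters), the CRE motif TGACGTCA (1.55%) or the CArG box (1.47%). These matches describe letters in a window and were not tied to binding.

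Depth was 5955142, 7564254 and 6396013 reads in WT iGB6 replicates 1, 2 and 3, and 6490868, 6611212 and 5196339 reads in IgHMOG iGBGFP replicates 1, 2 and 3. A count of 0 allows up to 3 reads, or 2.37 to 3.56 normalized counts in these libraries, for counting error alone. All 6 pan-myeloid markers, Itgam (CD11b itself) among them, were present in every library, whereas Ms4a1, Pax5 and Cd3e were at 0 in at least 1 library. The 10 neutrophil precursor markers summed to 22501 to 37075 normalized counts in WT iGB6 and 5568 to 13240 in IgHMOG iGBGFP, and all 9 that were tested rose in WT iGB6. Dendritic cell markers summed to 73.5 to 305 in WT iGB6 against 487 to 1571 in IgHMOG iGBGFP (5 of 6 tested fell in WT iGB6), and basophil markers to 464 to 1691 in WT iGB6 against 1838 to 7470 in IgHMOG iGBGFP (5 of 7 fell). The sums overlapped for mature neutrophil markers, at 307692 to 484246 in WT iGB6 and 225674 to 472118 in IgHMOG iGBGFP (1 of 10 fell in WT iGB6), and for classical monocyte markers, at 13947 to 24581 in WT iGB6 and 18656 to 38102 in IgHMOG iGBGFP (3 of 7 fell). B cell markers summed to no more than 129, T cell markers to no more than 229 and natural killer cell markers to no more than 1664 in any library, and erythroid markers to 1839 to 4191 in WT iGB6 and 705 to 2941 in IgHMOG iGBGFP, with no tested gene of these 4 lists called. In bulk libraries such as these, fewer cells of a type and less RNA per cell cannot be told apart.

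Of the 10 members, 3 fell in WT iGB6, all of them pro-survival (Mcl1, Bcl2a1b and Bcl2a1d), and none rose, also at an unadjusted p under 0.05. The test was limma on log2(normalized count + 1) with group and sex as terms and an adjusted p under 0.05, and the same test called 3.37% of 9923 genes lower and 2.75% higher. The same 3 members were lower with edgeR and with DESeq2 on the recovered reads and in the authors' deposited table, where 3.55%, 5.33% and 4.29% of all genes were called lower. Of the 10 members, 9 had a log2 fold change below 0, against 48.4% of all tested genes. One of these, Bcl2l1, lay near 0 and above it in 7 of 20 other fits, some of which were the same comparison of males. Without WT iGB6 replicate 2, Bcl2 lay above 0 and Bak1 below it. The pro-survival members had a median log2 fold change of -1.05 and the pro-death members of -0.35, beside 0.017 over all tested genes. Groups did not overlap for 4 members (Bcl2a1a, Bcl2a1b, Bcl2a1d and Bid), each lower in WT iGB6, whereas 11.4% of all tested genes were lower without overlap. The copies share reads, so they are not separate evidence, and Bcl2a1b and Bcl2a1d reached the mean of 10 normalized counts needed for testing only through their level in IgHMOG iGBGFP.

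**Figure D1:**
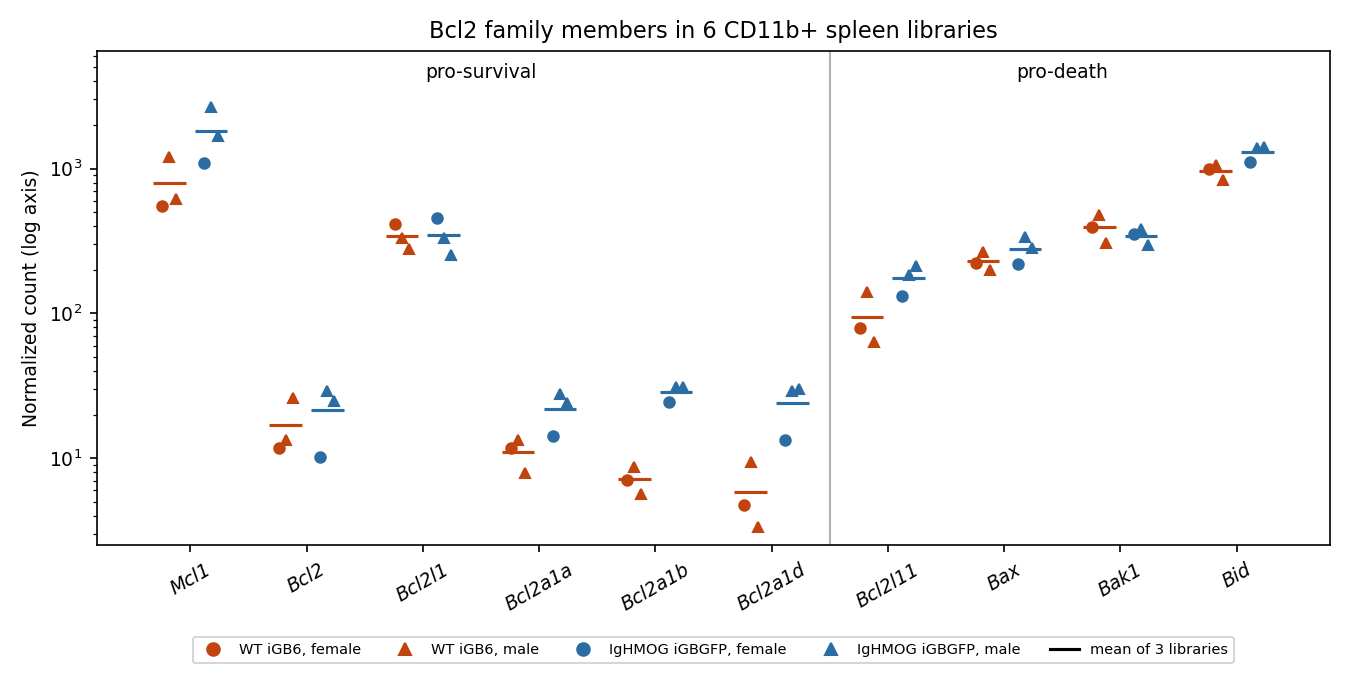
Normalized count (log axis) of each of the 10 members in each library, with pro-survival members left and pro-death members right; circles are female mice, triangles male mice and bars the mean of 3 libraries. Bcl2a1b and Bcl2a1d lie lower in every WT iGB6 library than in any IgHMOG iGBGFP library, Mcl1 overlaps in 1 library, and Bcl2l1 and Bak1 lie at like levels in both groups.

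**Figure D2:**
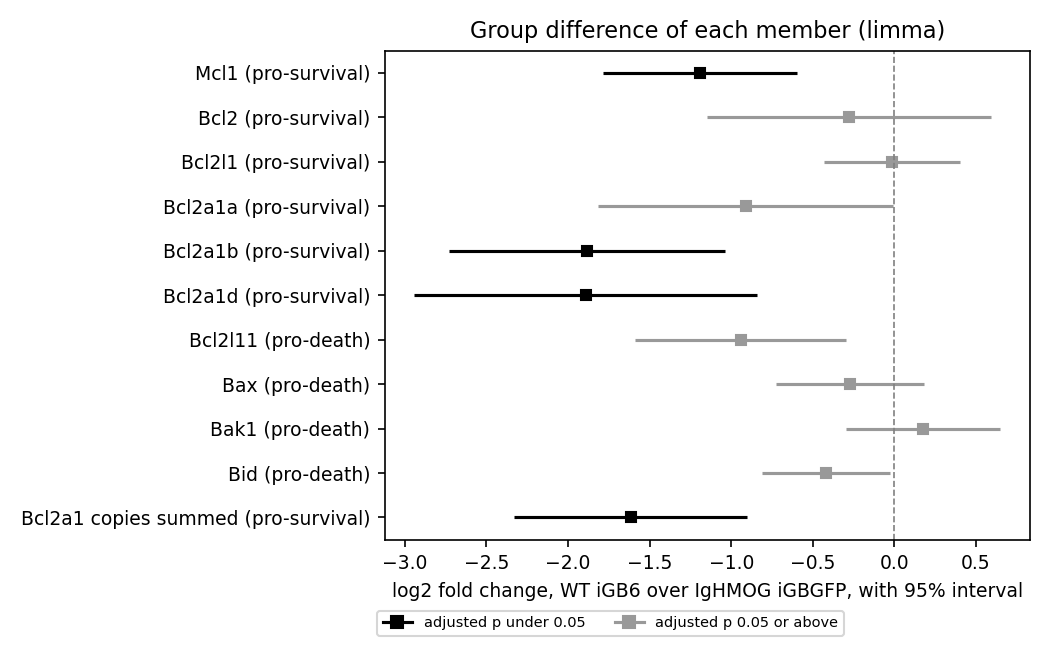
Fold change on the log2 scale, WT iGB6 over IgHMOG iGBGFP, for each member and for the summed Bcl2a1 copies (limma with sex as a term), with 95% intervals; black marks an adjusted p under 0.05. Mcl1 at -1.19, Bcl2a1b at -1.88 and Bcl2a1d at -1.89 are the called members, and the interval of Bcl2l1 runs from -0.43 to 0.40.

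Mcl1 (chromosome 3, 95658788 to 95663176, plus strand) encodes the pro-survival protein on which neutrophils rely. It had 554, 1206 and 616 normalized counts in WT iGB6 replicates 1, 2 and 3, against 1096, 2669 and 1677 in IgHMOG iGBGFP. The groups overlapped, since WT iGB6 replicate 2 lay above IgHMOG iGBGFP replicate 1, but the males did not overlap. The means were 792 ± 360 in WT iGB6 and 1814 ± 796 in IgHMOG iGBGFP (SD, n = 3 each), a ratio of 0.437. The log2 fold change was -1.19 (SE 0.27, 95% interval -1.78 to -0.60, limma adjusted p = 0.0339). It was -0.98 in the female pair and -1.29 in the males. In the authors' deposited table the log2 fold change was -1.06 with an adjusted p of 0.00101.

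The call on Mcl1 did not hold in every fit. Without either replicate 1, the sex term fits the 1 remaining female library exactly. For every gene such a fit therefore gives the male-only difference, and these fits are not separate checks. The adjusted p was 0.145 with no sex term, 0.0838 without WT iGB6 replicate 1, 0.0809 without IgHMOG iGBGFP replicate 1, 0.206 without IgHMOG iGBGFP replicate 2 and 0.0991 without IgHMOG iGBGFP replicate 3, with the direction kept each time. A further list held 17 genes of the immediate early or heat shock response. It was chosen after seeing the data, so its fall is no separate evidence. It summed to 23113 to 38772 normalized counts in WT iGB6 and 42732 to 68466 in IgHMOG iGBGFP. Of its 16 tested genes 10 fell, beside 3.37% of all tested genes. The part of these transcripts, which can answer to cell handling, and of the cell type markers above in the Mcl1 difference was not tested.

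The A1 copies had low counts. Bcl2a1b (chromosome 9, 89199209 to 89207827, plus strand) had 7.11, 8.68 and 5.62 normalized counts in WT iGB6, against 24.6, 31.0 and 31.0 in IgHMOG iGBGFP, with no overlap. That is 6, 11 and 5 reads in WT iGB6 and 24, 36 and 31 reads in IgHMOG iGBGFP. Its log2 fold change was -1.88 (SE 0.38, 95% interval -2.73 to -1.04, limma adjusted p = 0.0248), and -1.65 in the female pair and -1.999 in the males. Bcl2a1b shares 401 exon bases with Gm29094, a gene on the same strand that had at most 0.79 normalized counts in any library.

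Bcl2a1d (chromosome 9, 88723285 to 88731914, minus strand) had 4.74, 9.47 and 3.37 normalized counts in WT iGB6, against 13.3, 29.3 and 29.99 in IgHMOG iGBGFP. Every WT iGB6 library was below every IgHMOG iGBGFP library, and the WT iGB6 values rest on 4, 12 and 3 reads. The log2 fold change was -1.89 (SE 0.47, 95% interval -2.94 to -0.84, limma adjusted p = 0.0445). Bcl2a1a (chromosome 9, 88956900 to 88962419, plus strand) had 11.9, 13.4 and 7.87 normalized counts in WT iGB6, against 14.3, 27.6 and 24.0 in IgHMOG iGBGFP. It did not pass the test, with a log2 fold change of -0.91 (SE 0.41, 95% interval -1.82 to -0.0063, limma adjusted p = 0.201), although its groups did not overlap.

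Summing the copies, Bcl2a1c included, avoids the question of how counted reads were split among them. If reads that match more than 1 copy were not counted, the sum misses them too. The sum was 23.7, 31.6 and 16.9 normalized counts in WT iGB6, against 53.2, 88.0 and 84.97 in IgHMOG iGBGFP, without overlap. Its log2 fold change was -1.62 (SE 0.32, 95% interval -2.33 to -0.90, limma adjusted p = 0.0240). Of the single copies, the Bcl2a1b call was lost with no sex term (adjusted p = 0.102) and without WT iGB6 replicate 1 (0.0704) or IgHMOG iGBGFP replicate 1 (0.0809), 2 (0.160) or 3 (0.105). The Bcl2a1d call was lost with no sex term (adjusted p = 0.125) and without WT iGB6 replicate 1 (0.0838) or 3 (0.0700) or IgHMOG iGBGFP replicate 1 (0.0892), 2 (0.223) or 3 (0.155). In the authors' deposited table Bcl2a1b had a log2 fold change of -1.34 with an adjusted p of 0.0175, and Bcl2a1d one of -1.23 with an adjusted p of 0.0444. The part of the dendritic cell and basophil markers, which were lower in WT iGB6, in the A1 difference was not tested.

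The other pro-survival members did not pass the test. Bcl2l1 (chromosome 2, 152780668 to 152831728, minus strand) encodes BCL-XL and had 413, 330 and 277 normalized counts in WT iGB6, against 457, 333 and 255 in IgHMOG iGBGFP. The values interleave, replicate 1 is highest in each group, and the log2 fold change of -0.014 (SE 0.19, limma adjusted p = 0.971) has a 95% interval of -0.43 to 0.40 and was 0.024 with upper-quartile scaling. Bcl2 (chromosome 1, 106538178 to 106714274, minus strand), the founding member, had 11.9, 13.4 and 25.9 normalized counts in WT iGB6, against 10.2, 29.3 and 25.0 in IgHMOG iGBGFP. Its interval is wider, -1.15 to 0.59 about a log2 fold change of -0.28 (SE 0.39, limma adjusted p = 0.710), and without WT iGB6 replicate 2 the fold change was 0.048.

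Among the pro-death members, neither effector passed the test and the groups overlapped for both. Bax (chromosome 7, 45461697 to 45466898, minus strand) had 222, 266 and 199 normalized counts in WT iGB6, against 218, 337 and 281 in IgHMOG iGBGFP, with a log2 fold change of -0.27 (SE 0.20, 95% interval -0.72 to 0.18, limma adjusted p = 0.453). Bak1 (chromosome 17, 27019810 to 27029009, minus strand) had 395, 481 and 305 normalized counts in WT iGB6, against 352, 384 and 297 in IgHMOG iGBGFP. It was the 1 member with a fold change above 0, at 0.18 on the log2 scale (SE 0.21, 95% interval -0.30 to 0.65, limma adjusted p = 0.656), and at -0.013 without WT iGB6 replicate 2. The Bak1 exons share 437 bases with Ggnbp1 on the other strand, which had 7.0 to 23.7 normalized counts. As far as the labels say strand was not marked, so reads from the 2 strands may not have been told apart.

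The BH3-only members both had values below 0 on the log2 scale without passing the test. Bcl2l11 (chromosome 2, 128126038 to 128162547, plus strand), which encodes BIM, had 79.4, 141 and 63.0 normalized counts in WT iGB6, against 132, 184 and 211 in IgHMOG iGBGFP. WT iGB6 replicate 2 lay above IgHMOG iGBGFP replicate 1, and the log2 fold change was -0.94 (SE 0.29, 95% interval -1.59 to -0.29, limma adjusted p = 0.0811). Without WT iGB6 replicate 2 it was -1.24 with an adjusted p of 0.00601, without WT iGB6 replicate 3 it was -0.58 with an adjusted p of 0.136, and leaving out any of the other 4 libraries gave an adjusted p of 0.163 to 0.263. Bid (chromosome 6, 120891930 to 120916853, minus strand), which caspase-8 cleaves to link death receptors to mitochondria, had 992, 1066 and 837 normalized counts in WT iGB6, against 1106, 1376 and 1400 in IgHMOG iGBGFP. The Bid groups did not overlap, but the difference was small, at -0.42 on the log2 scale (SE 0.18, 95% interval -0.81 to -0.030, limma adjusted p = 0.175). Bid exons share 628 bases with the opposite-strand gene Bcl2l13.

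Whether the group difference of a member differed between the female pair and the males was tested with an interaction term. No member passed, with a lowest unadjusted p of 0.290 and only 2 residual degrees of freedom, and 0 of all 9923 genes passed, with 148 at an unadjusted p under 0.05.

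Levels per kilobase of exon allow a rough comparison between members. They divide by merged exon length, which is 9157 bases for Bcl2 and 8029 for Bcl2l11. The A1 levels are too low if reads that match more than 1 copy were not counted. In WT iGB6, Bid averaged 272 ± 32.9 normalized counts per kilobase, Mcl1 232 ± 105, Bak1 163 ± 36.5 and Bax 145 ± 21.6 (SD, n = 3 each), and neighbours in that order overlapped. In IgHMOG iGBGFP, Mcl1 came first at 531 ± 233 and Bid second at 364 ± 46.0, overlapping each other and lying above all values of the next gene, before Bax at 177 ± 37.9 and Bak1 at 143 ± 18.3, which overlapped (SD, n = 3 each). Bcl2l1 lay below these and above the rest without overlap in either group, at 74.1 ± 14.9 in WT iGB6 and 76.0 ± 22.3 in IgHMOG iGBGFP normalized counts per kilobase (SD, n = 3 each). Bcl2a1a, Bcl2a1b, Bcl2a1d and Bcl2l11 overlapped with their neighbours in each group, between 6.79 and 13.5 in WT iGB6 and between 21.9 and 35.3 in IgHMOG iGBGFP as group means. Bcl2 was lowest, at 1.86 ± 0.84 in WT iGB6 and 2.35 ± 1.09 in IgHMOG iGBGFP.

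Mcl1 therefore made up most of the summed pro-survival normalized counts per kilobase in every library, with the same limit on the A1 copies. Its share was 57.5, 76.0 and 68.3% in WT iGB6 replicates 1, 2 and 3, against 66.2, 81.1 and 75.4% in IgHMOG iGBGFP. Bcl2l1 held 31.9, 15.5 and 22.9% in WT iGB6, against 20.6, 7.54 and 8.54% in IgHMOG iGBGFP, so that the groups overlap for both genes. Bcl2a1b held 3.09, 2.29 and 2.61% in WT iGB6, against 6.20, 3.95 and 5.83% in IgHMOG iGBGFP, without overlap. Mcl1 over Bcl2l1 within a library, a ratio added after seeing the data, was 0.42, 1.87 and 1.15 on the log2 scale in WT iGB6 and 1.26, 3.00 and 2.71 in IgHMOG iGBGFP. The groups overlapped, and the difference of -1.18 gets no test because the genes of the ratio were picked with the data seen.

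The balance of pro-survival and pro-death transcripts was described within each library as the mean log2(normalized count + 1) of the 6 pro-survival members minus that of the 4 pro-death members. It was -3.06, -3.05 and -2.88 in WT iGB6 replicates 1, 2 and 3, against -2.54, -2.16 and -2.30 in IgHMOG iGBGFP. All 3 WT iGB6 libraries lay below all 3 IgHMOG iGBGFP libraries, with means of -2.996 ± 0.10 in WT iGB6 and -2.33 ± 0.19 in IgHMOG iGBGFP (SD, n = 3 each), a difference of -0.66 that gets no test because the members were picked by hand. The 3 A1 copies carry most of it: the difference was -0.13 without them and -0.41 with them as 1 sum. Without the copies the groups overlapped. Mcl1 over Bcl2l11 was 2.79, 3.08 and 3.27 on the log2 scale in WT iGB6, against 3.04, 3.85 and 2.99 in IgHMOG iGBGFP, with overlap. Bcl2 over Bax was -4.11, -4.21 and -2.90 in WT iGB6, against -4.28, -3.48 and -3.44 in IgHMOG iGBGFP, also with overlap.

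**Figure D3:**
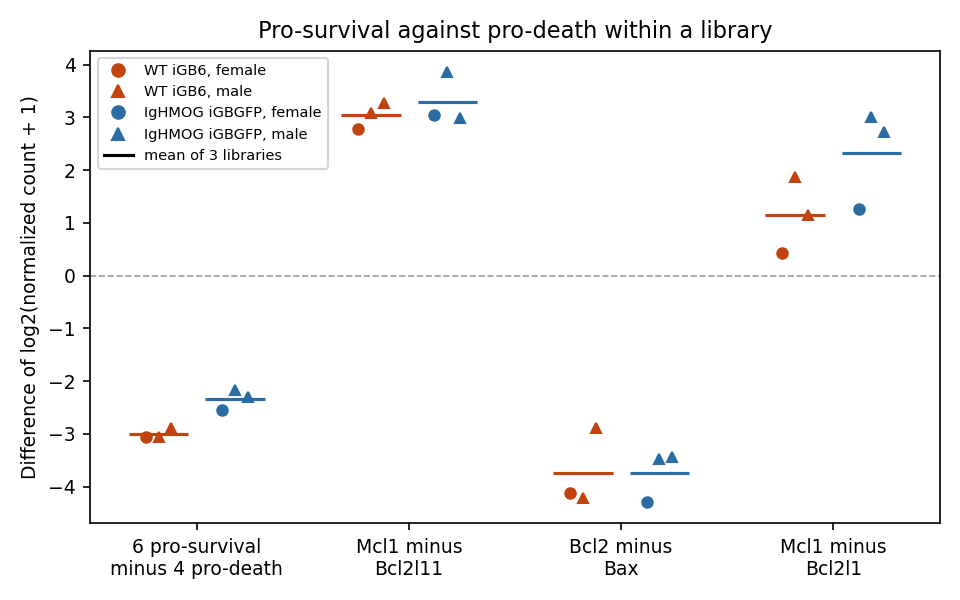
Log2 balances within each library, WT iGB6 left of IgHMOG iGBGFP in each pair: pro-survival minus pro-death members, and ratios of single members; circles are female mice, triangles males and bars means of 3. The pro-survival minus pro-death balance separates the groups (means -2.996 in WT iGB6 and -2.33 in IgHMOG iGBGFP), but not when the 3 A1 copies are left out. Mcl1 over Bcl2l11 and Bcl2 over Bax overlap.

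The genes whose profile over the 6 libraries was nearest to that of a called member were found among 5219 genes by the root-mean-square difference of centred log2 values. Nearest to Mcl1 were Gab2 (0.121), which encodes a signalling adaptor, Fxyd5 (0.129), a membrane glycoprotein, and Emilin2 (0.135), an extracellular matrix protein. Their own log2 fold changes were -1.06 for Gab2, -1.11 for Fxyd5 and -1.24 for Emilin2. Nearest to Bcl2a1b were Haao (0.246), an enzyme of tryptophan breakdown, Ms4a2 (0.290), the beta chain of the high-affinity IgE receptor of basophils and mast cells, and Tspan13 (0.320). Nearest to Bcl2a1d were Gpr18 (0.158), a lipid receptor, Prr5l (0.168) and the pseudogene Gm11346 (0.214). A small difference means only that the levels moved alike over these libraries.

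Most other genes of the pathway did not pass the test. Of 43 genes in 6 further lists, all were found in the table and 34 were tested, of which 1 fell in WT iGB6 and none rose, against 3.37% of all tested genes lower and 2.75% higher. At an unadjusted p under 0.05, 8 were lower and 5 higher. These counts are not read as a result, since the share of all genes at that threshold is not given here. edgeR also called Bnip3 alone, and DESeq2 and the authors' deposited table called Bnip3 and Fas. The gene that fell was Bnip3, a BH3-like mitochondrial protein best known from mitophagy and hypoxia. It had 60.5, 78.9 and 83.2 normalized counts in WT iGB6, against 110, 158 and 203 in IgHMOG iGBGFP, without overlap. Its log2 fold change was -1.04 (SE 0.22, limma adjusted p = 0.0278), with an adjusted p of 0.122 with no sex term, 0.0815 without WT iGB6 replicate 1, 0.0840 without IgHMOG iGBGFP replicate 1, 0.128 without IgHMOG iGBGFP replicate 2 and 0.109 without IgHMOG iGBGFP replicate 3. The other 4 tested genes of its Bcl2-related list did not pass, and the most abundant, its relative Bnip3l, stood at 0.31 (limma adjusted p = 0.302), next to Bcl2l13 at 0.45 (0.163).

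Of 4 further BH3-only genes that could be tested none passed, 3 had values below 0, and the list had a median log2 fold change of -0.92. Pmaip1, which encodes NOXA, the BH3-only protein that binds MCL1, had 455, 870 and 290 normalized counts in WT iGB6, against 686, 1005 and 1318 in IgHMOG iGBGFP. WT iGB6 replicate 2 lay above IgHMOG iGBGFP replicate 1, and the log2 fold change was -0.99 (SE 0.34, limma adjusted p = 0.113). Bad stood at 0.25 (limma adjusted p = 0.446). Bmf, at -0.97 (SE 0.28, limma adjusted p = 0.0636), and Bbc3, which encodes PUMA, at -0.87 (limma adjusted p = 0.204), are named after their values were seen. Hrk was at 0 in all 6 libraries.

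Of 3 further pro-survival genes none reached the level for testing, and Bcl2l10 was at 0 in all libraries. Of 14 tested genes downstream of mitochondria none passed, with a median log2 fold change of 0.13. The most abundant were Vdac2, a channel of the outer membrane that binds BAK, at 0.26 (limma adjusted p = 0.366), and Birc3, an inhibitor of apoptosis protein, at -0.31 (limma adjusted p = 0.266). Casp6 at 0.70 (limma adjusted p = 0.0699) and Aifm1 at 0.62 (0.0735), named after their values were seen, lay above 0 without passing. Of 7 tested death receptor genes none passed, with a median of 0.32, and the most abundant were Tnfrsf1a, a TNF receptor, at -0.55 (limma adjusted p = 0.114) and Casp8, at 0.37 (limma adjusted p = 0.238). Fas, named after its values were seen, was lower in WT iGB6 without overlap, at -0.75 (SE 0.21, limma adjusted p = 0.0574), and in the authors' deposited table at -0.69 with an adjusted p of 0.0309. None of 4 tested genes for MCL1 protein turnover passed, with a median of -0.36, among them the deubiquitinase gene Usp9x at 0.29 (limma adjusted p = 0.453) and the ubiquitin ligase gene Huwe1 at -0.53 (limma adjusted p = 0.192).

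**Figure D4:**
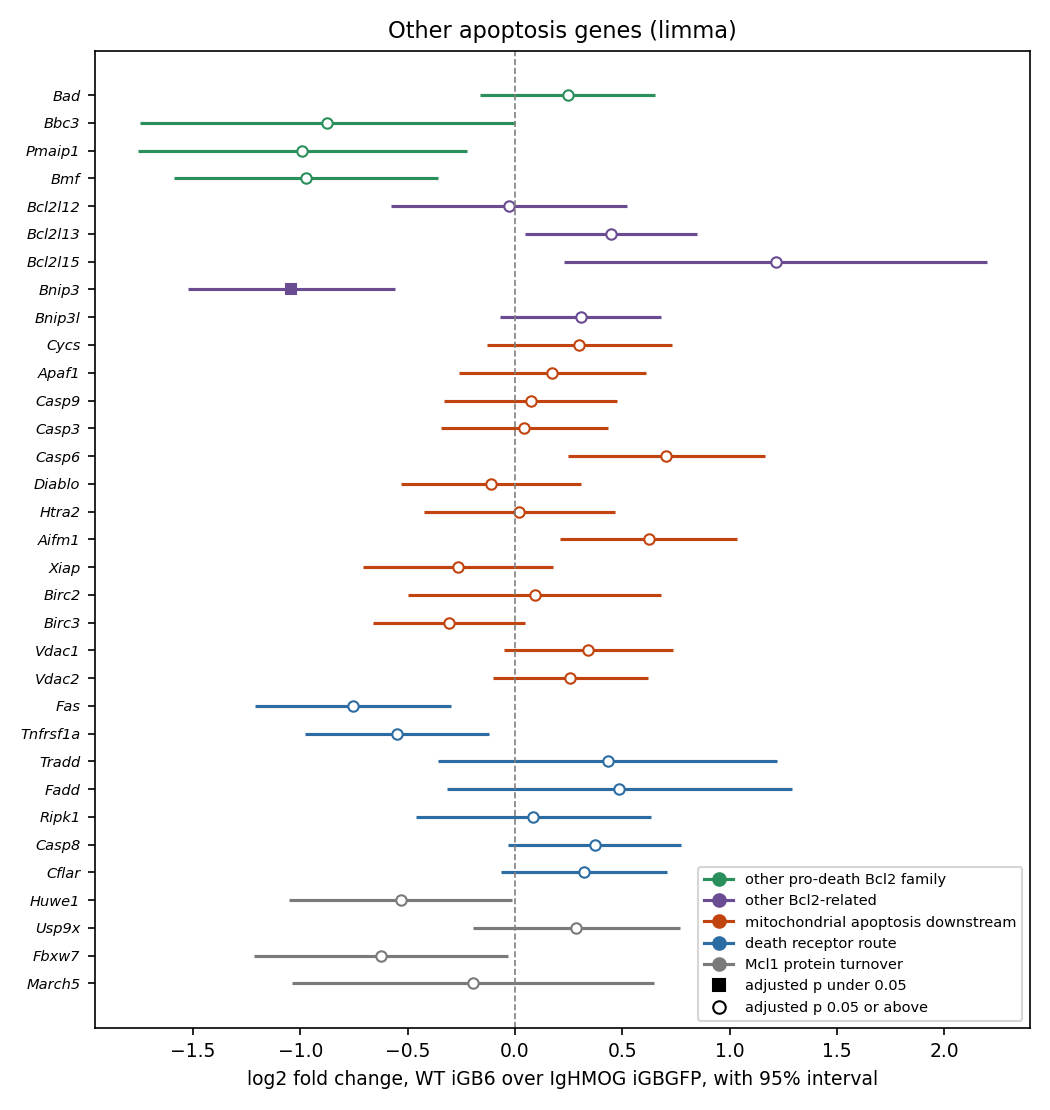
Fold change on the log2 scale, WT iGB6 over IgHMOG iGBGFP, for tested genes of further apoptosis lists, coloured by list, with 95% intervals; the filled square has an adjusted p under 0.05 and open circles do not. Bnip3 at -1.04 is the 1 gene past the threshold, beside Pmaip1 at -0.99 and Bmf at -0.97, which are not.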

How the data were processed

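The 6 bulk RNA-seq libraries (CD11b+ spleen cells, 3 mice per group) were grouped by the sample labels, which do not mention molecular identifiers. RNA was amplified without marking strand as far as the labels say. Tools in the submitters' processing notes, given there without roles, are STAR 2.7.10b, cutadapt 4.4, DESeq2 2.11.40.7, FastQC 0.74 and featureCounts 2.0.3, with the builds mm10 and GRCm38. The deposited signal values are normalized counts, per the labels and file headers, and dividing each column by the value of 1 read gave whole reads for 100% of values within 0.001. The authors' second deposited table holds log2 fold changes, a score, p-values and adjusted p-values, with the column order read from the values.

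Symbols came from GENCODE M21 (42462 of 43432 identifiers matched). The test was limma 3.58.1 in R 4.3.3 (trend) on log2(normalized count + 1), which understates changes of low genes, over 9923 genes averaging 10 or more. Terms were group and sex, and two-sided p-values were adjusted by Benjamini-Hochberg over all of them, with a threshold of 0.05. Sex coincides with replicate number 1. Levels per kilobase divide by merged GENCODE exon length. edgeR 4.0.16 and DESeq2 1.42.0 were run on recovered reads, and further alternatives changed the sex term, replicate block, pseudocount, filter, scaling, library weights, sexes used and libraries left out. The fits were also run on simulated counts with a fixed spread and no sex effect, which does not show how they perform on these mice. The text names all 10 members, each called gene and the 2 most abundant of each further list, and the 3 genes nearest to each called member (mean of at least 100). The members and lists were chosen with earlier results of these data known. With 1 mouse per library, p-values measure the spread between mice. Some genes of the further lists are not reported by name here.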

Additional observations from a re-analysis of the deposited data

How the results depend on the processing

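The count of members called, 3 in the reported fit, was 0 with no sex term, 1 with a minimum mean of 50 normalized counts, under which Bcl2 and the A1 copies were not tested, and 0 in males only. It was 0 to 4 over fits that left out 1 library each: 0 without WT iGB6 replicate 1 or any 1 IgHMOG iGBGFP library, 4 without WT iGB6 replicate 2 and 2 without WT iGB6 replicate 3. Mcl1, Bcl2a1b and Bcl2a1d kept their direction in every fit that tested them, with log2 fold changes of -1.44 to -0.88, -2.02 to -1.34 and -2.18 to -1.23 and adjusted p of 0.000398 to 0.206, 0.00618 to 0.160 and 0.0108 to 0.223. In males only the adjusted p was 0.0828 for Mcl1, 0.0749 for Bcl2a1b and 0.0828 for Bcl2a1d. The fits without either replicate 1 gave the same log2 fold changes as males only, since the sex term fits the 1 remaining female exactly. They are 1 comparison and not separate ones. Bcl2l11 also passed with no filter on low values (adjusted p = 0.0223). The pro-survival minus pro-death difference, -0.66, was -0.49 with a pseudocount of 5, -0.41 with the copies summed, -0.13 without them, and -0.77 to -0.58 leaving out 1 library each. The cause of these shifts was not tested.

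Over all genes, 607 were called, against 10 with no sex term, 1079 with no filter, 951 by DESeq2, 1443 with library weights and 133 in males only. Leaving out a library gave 133 without WT iGB6 replicate 1, 1090 without replicate 2 and 657 without replicate 3, and 128, 4 and 28 without IgHMOG iGBGFP replicates 1, 2 and 3. Whether the replicate numbers pair the libraries was left unsettled: same-numbered deviations correlated at 0.48, 0.35 and 0.041. Replicates 1 and 2 of each group correlated best with their own number. WT iGB6 replicate 3 correlated best with IgHMOG iGBGFP replicate 1 (0.085), and IgHMOG iGBGFP replicate 3 with WT iGB6 replicate 2 (0.287). With a replicate block in place of sex, 1001 genes and 3 members were called, and Mcl1 had a limma adjusted p of 0.0045. Depth was lowest for Bcl2 and the A1 copies, at 3 to 36 reads per library, and its part in their errors was not tested.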
